A study of Mus musculus with 9 samples.

Results

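The SLC25 genes encode the mitochondrial carrier family, the transporters that move small metabolites across the inner mitochondrial membrane. The members described here are all genes of the deposited count table whose symbol begins with Slc25a, other than Slc25a1 and Slc25a20, and they number 45 of 21868 genes in the table. Of these, 38 passed the filter on low counts and were tested among 14668 genes. The measurements are bulk RNA-seq counts from mouse jejunum after 24 h of sham treatment, TPN (total parenteral nutrition, the feeding of nutrients through a vein) or starvation, with 3 libraries in each of the 3 groups. A 5 cm length of jejunum was taken and opened lengthwise, so a library can hold RNA of epithelium, immune cells, muscle and any tissue attached to the gut. The labels give no strain, genotype, age or sex, and name the replicates as biological without saying that each is a separate mouse. If they are not, a p-value speaks only of how these libraries vary, and that variation may be technical.

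Carriers of this family share a fold built from repeated modules and mostly act as exchangers, taking one metabolite into the matrix against another that leaves. They supply the matrix with ADP and phosphate for ATP synthesis, with cofactors and nucleotides, and with iron for heme and iron-sulfur clusters, and they carry the dicarboxylates and amino acids of the redox shuttles. In the small intestine, whose enterocytes oxidise glutamine and make citrulline for export, the ornithine carrier and the carriers of glutamate, malate and oxoglutarate link the matrix with the cytosolic part of these pathways.

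Total counts per library ran from 7779877 to 12084278, and 1 read amounted to 0.0798 to 0.119 CPM, the count scaled to library size after TMM (trimmed mean of M values) correction. All 8 enterocyte markers were read in these jejunal libraries, and their summed level ran from 22400 to 88000 CPM. Sham replicate 2 and starvation replicate 3 stood apart from their groups. In sham replicate 2, 10 smooth muscle markers summed to 9670 CPM, against 441 to 1400 CPM in the other 8 libraries. In starvation replicate 3, 6 villus tip markers summed to 6370 CPM, against 1030 to 2950 CPM in the others. Pancreatic acinar markers summed to 16.0 to 19.7 CPM in 5 libraries and to 269 to 15100 CPM in the other 4, which were replicate 1 of each group and TPN replicate 2.

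The family took between 0.386% and 0.516% of the counts of a library. The share was 0.502%, 0.448% and 0.516% in sham replicates 1 to 3, 0.409%, 0.386% and 0.397% in TPN, and 0.453%, 0.459% and 0.473% in starvation. All TPN libraries lay below all sham and all starvation libraries in this share. Levels of different genes are compared here as CPM per kb of exon. Slc25a5, the main ADP/ATP exchanger of proliferating and epithelial cells, had the highest mean level over the 9 libraries, 626 CPM per kb, and took 39.0% to 45.0% of the family's summed CPM per kb. It was followed by the oxoglutarate carrier Slc25a11 at 107, by Slc25a45 (68.7 to 146 CPM per kb over the libraries), by the phosphate carrier Slc25a3 at 83.3 and by the dicarboxylate carrier Slc25a10 at 71.2 CPM per kb. The ranges of these 4 genes over the libraries overlap, so their order is not firm, while the lowest library of Slc25a5 (461 CPM per kb) lay above the highest of any other member. The glutamate carrier Slc25a22 (60.9), the ornithine carrier Slc25a15 (58.4), the ATP-Mg/phosphate carrier Slc25a24 (54.4), the glutathione carrier Slc25a39 (52.5) and the NAD carrier Slc25a51 (50.6) came next. With the longest transcript as the length in place of all exons, Slc25a10 rose to 122 CPM per kb and passed Slc25a45 at 106.

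**Figure D1:**
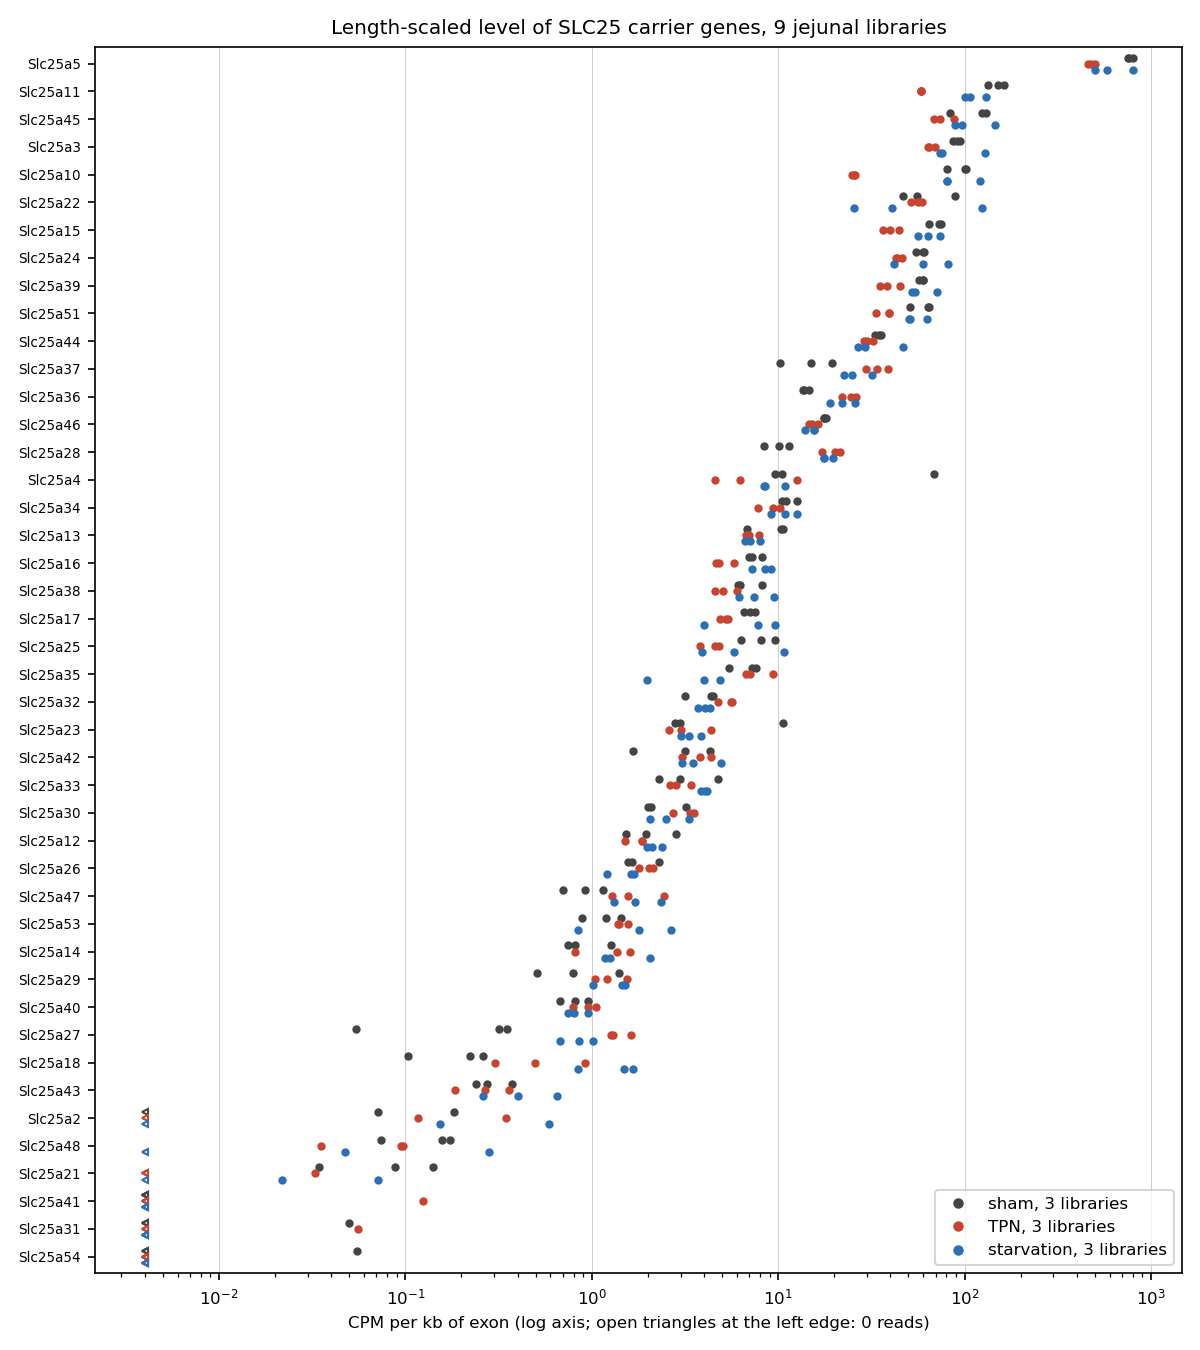
Length-scaled level of the carrier genes, in CPM per kb of exon on a log axis, with 1 point per library and colour for the group. Slc25a5 stands alone at the top with a mean of 626 CPM per kb, and the 7 genes that the filter removed lie at the bottom, with open triangles for libraries without a read.

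The filter on low counts removed 7 members. Slc25a43 had 57 reads over the 9 libraries, Slc25a48 had 34, Slc25a2 and Slc25a21 had 19 each, Slc25a31 and Slc25a41 had 2 each, and Slc25a54 had 1. Slc25a2 is the second ornithine carrier, Slc25a21 carries oxoadipate and Slc25a31 is the ADP/ATP exchanger of the testis. At these counts no difference between the groups was detectable.

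In TPN against sham, 8 of the 38 tested members changed, 4 of them lower and 4 higher, which is 21.1% of the tested members against 8.60% of all genes tested (5.12% lower and 3.48% higher). A change here means an adjusted p under 0.05 in the quasi-likelihood test of edgeR over all genes tested, and a difference is a log2 fold change ± its standard error (SE). The dicarboxylate carrier Slc25a10, the oxoglutarate carrier Slc25a11, the ornithine carrier Slc25a15 and the NAD carrier Slc25a51 fell in TPN. The iron carriers Slc25a37 and Slc25a28, the pyrimidine nucleotide carrier Slc25a36 and the uncoupling-related Slc25a27 rose. The median log2 fold change was -0.20 over the tested members and -0.02 over all genes, and the libraries of the groups did not overlap for 23 members (60.5%), against 42.7% of all genes. The count rose to 14 without starvation replicate 3 (21.3% of all genes were then called), and it fell to 4 without sham replicate 1 or 3 (3.75% and 2.64% of all genes) and to 3 without any 1 TPN library (1.45% to 1.62% of all genes). Without sham replicate 2 and starvation replicate 3 together it was 19, with 29.8% of all genes called.

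In starvation against sham, 3 of the 38 tested members changed, all higher: Slc25a28, Slc25a36 and the glutamate carrier Slc25a18. That is 7.89% of the tested members against 3.69% of all genes tested (2.55% higher and 1.14% lower), with no overlap between the groups for 9 members (23.7%) against 25.1% of all genes. No tested member was called lower by edgeR, DESeq2 or limma voom on all 9 libraries, and 3 had a lower level at an unadjusted p under 0.05. The count was 7 without starvation replicate 3, 5 higher and 2 lower (Slc25a5 and Slc25a11), with 11.6% of all genes called. It was 1 without sham replicate 1 or 2 or TPN replicate 3, with 0.939% to 1.76% of all genes called. It was 0 by edgeR without sham replicate 3, TPN replicate 1 or 2, or starvation replicate 2, with 0.214% to 0.783% of all genes called. Without sham replicate 2 and starvation replicate 3 together it was 13 (8 higher and 5 lower), with 19.9% of all genes called.

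In TPN against starvation, 4 members changed, all lower in TPN: Slc25a10, Slc25a11, Slc25a15 and the CoA-related carrier Slc25a16. They are 10.5% of the tested members against 5.84% of all genes (3.90% lower and 1.94% higher), with no overlap for 15 members (39.5%) against 33.6% of all genes. No member was called higher in this comparison by edgeR or limma voom on all 9 libraries, 2 were higher at an unadjusted p under 0.05, and DESeq2 called 1 higher. The count was 2 without sham replicate 1 or 3 (3.60% and 3.54% of all genes) and 1 without any 1 TPN library (0.831% to 1.07% of all genes), and 10 (3 higher and 7 lower) without sham replicate 2 and starvation replicate 3 together, with 21.6% of all genes called. Both comparisons with sham use the same 3 sham libraries, and both comparisons with TPN the same 3 TPN libraries, so calls shared between comparisons are not independent.

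**Figure D2:**
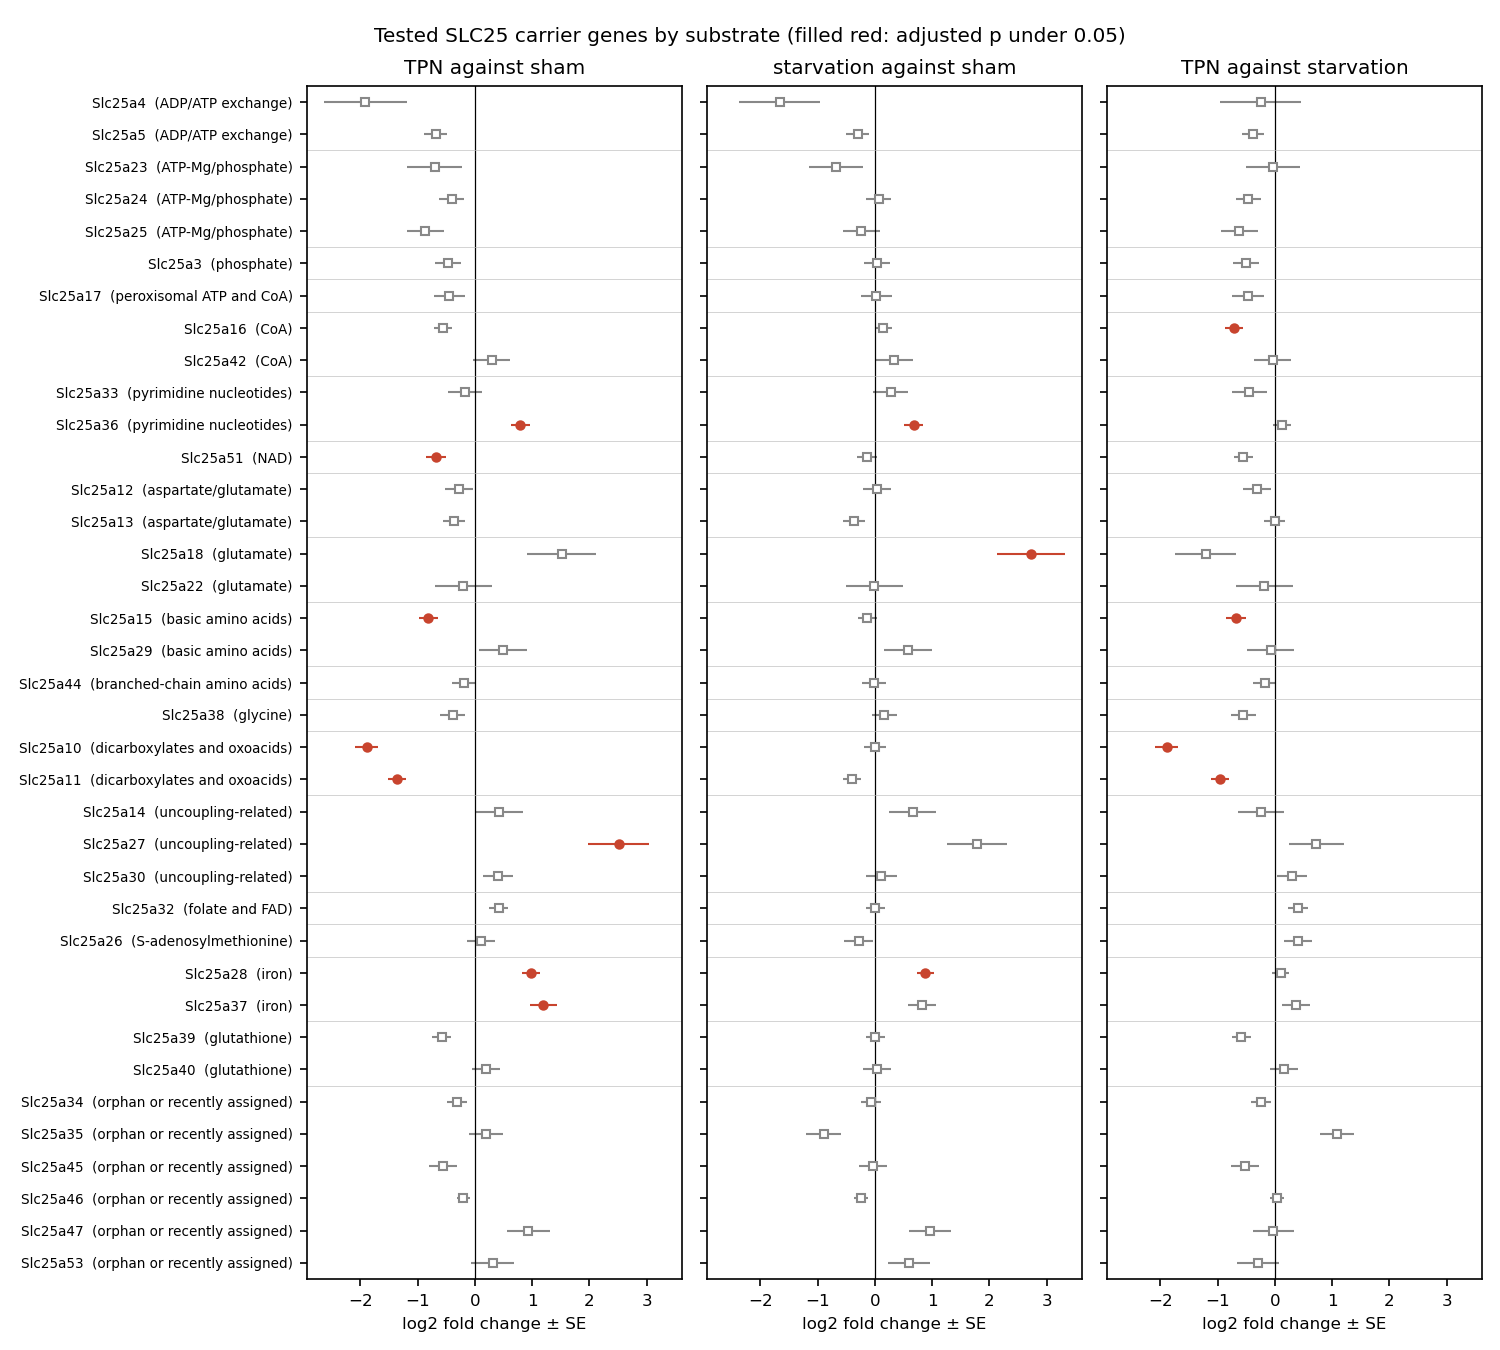
Log2 fold change ± SE of tested carrier genes in the 3 comparisons, ordered by substrate, with filled red circles for an adjusted p under 0.05 and open squares for the others. In TPN against sham 4 members lie left of 0 and 4 right of 0 among the red points, in starvation against sham all 3 lie right of 0, and in TPN against starvation all 4 lie left of 0.

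Among the carriers of dicarboxylates and oxoacids, both tested members fell in TPN. Slc25a10, which exchanges malate and succinate for phosphate and sulfur oxyanions, stood at 352, 279 and 346 CPM in sham, 88.8, 86.3 and 88.6 CPM in TPN and 279, 279.8 and 416 CPM in starvation. All 3 TPN libraries lay far below the other 6, and the sham and starvation libraries overlapped. The difference was -1.89 ± 0.20 (adjusted p = 0.00164) in TPN against sham, a 3.70-fold lower level, and -1.89 ± 0.20 (adjusted p = 0.002) in TPN against starvation. It was 0.00 ± 0.19 (adjusted p = 0.995) in starvation against sham. Slc25a11, which exchanges oxoglutarate for malate in the malate-aspartate shuttle, stood at 322, 282 and 344 CPM in sham, 124, 123 and 123 CPM in TPN and 227, 212 and 277 CPM in starvation. The groups did not overlap, with sham highest, starvation between and TPN lowest. The difference was -1.36 ± 0.16 (adjusted p = 0.00262) in TPN against sham, -0.95 ± 0.16 (adjusted p = 0.0122) in TPN against starvation and -0.40 ± 0.16 (adjusted p = 0.165) in starvation against sham. Leaving out any 1 TPN library ended the call of Slc25a11 in TPN against starvation, with a log2 fold change of -0.95 and adjusted p between 0.0695 and 0.0768. Without starvation replicate 3, starvation against sham reached -0.55 ± 0.13 (adjusted p = 0.0306) for this gene.

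The promoters of Slc25a10 and Slc25a11 are shown because these members fell together, and those of Slc25a28 and Slc25a36 because these rose together in both comparisons with sham. Each runs from 250 bases before to 50 bases after the gene's start in RefSeq on GRCm38.p6, read 5′ to 3′ on the gene's strand. GENCODE starts, at 70647479 for Slc25a11 and 97111157 for Slc25a36, lie further upstream than those of RefSeq. The whole Slc25a11 window therefore lies inside the GENCODE gene. The windows are chr11:120491587-120491886 on the plus strand for Slc25a10, and chr11:70646990-70647289, chr19:43674832-43675131 and chr9:97110992-97111291 on the minus strand for Slc25a11, Slc25a28 and Slc25a36. Capitals mark matches, on either strand, to the GC box GGGCGG, the CCAAT box CCAAT and the E-box CACGTG.
Slc25a10: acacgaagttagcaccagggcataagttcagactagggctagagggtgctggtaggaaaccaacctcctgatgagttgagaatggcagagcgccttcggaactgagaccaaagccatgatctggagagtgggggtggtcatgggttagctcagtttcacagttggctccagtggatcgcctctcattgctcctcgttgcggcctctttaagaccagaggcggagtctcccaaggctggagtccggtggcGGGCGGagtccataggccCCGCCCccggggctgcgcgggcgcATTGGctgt
Slc25a11: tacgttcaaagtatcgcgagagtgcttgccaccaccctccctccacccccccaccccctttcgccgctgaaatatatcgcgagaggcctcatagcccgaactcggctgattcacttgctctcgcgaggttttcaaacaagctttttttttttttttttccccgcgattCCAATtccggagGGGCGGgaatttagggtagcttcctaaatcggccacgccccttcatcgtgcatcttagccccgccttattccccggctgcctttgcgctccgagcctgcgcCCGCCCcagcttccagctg
Slc25a28: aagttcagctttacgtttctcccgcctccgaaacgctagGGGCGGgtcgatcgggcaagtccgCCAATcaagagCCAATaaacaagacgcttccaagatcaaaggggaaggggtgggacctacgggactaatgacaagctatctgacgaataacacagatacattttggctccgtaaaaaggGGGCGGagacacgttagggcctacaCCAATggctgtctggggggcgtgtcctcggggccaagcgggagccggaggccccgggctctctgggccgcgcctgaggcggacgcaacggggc
Slc25a36: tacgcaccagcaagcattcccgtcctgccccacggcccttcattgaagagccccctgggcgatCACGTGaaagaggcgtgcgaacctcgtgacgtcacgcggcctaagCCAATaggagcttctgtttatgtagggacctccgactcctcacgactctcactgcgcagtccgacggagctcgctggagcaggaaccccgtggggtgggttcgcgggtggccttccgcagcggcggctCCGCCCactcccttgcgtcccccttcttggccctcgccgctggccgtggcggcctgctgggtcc
Each of the 4 windows held a GC box and a CCAAT box, and only that of Slc25a36 held the E-box. A window was found for 34 of the 45 members, 44 windows in all. Members with several windows, some of them overlapping, were counted once per window. The GC box occurred in 36 of these 44 windows (81.8%) and in 35.7% of all 32851 windows of the same length. Those 32851 windows were not limited to genes tested here. The CCAAT box occurred in 47.7% of member windows and 37.4% of all, and the E-box in 15.9% and 7.15%. The letters of the glucocorticoid response element were in none of the 44 member windows and in 0.475% of all. Those of the xenobiotic response element TNGCGTG were in 4 (9.09%) and in 5.07%, those of the antioxidant response element TGACNNNGC in 12 (27.3%) and in 12.4%, and those of the sterol response element TCACNCCAC in 1 (2.27%) and in 1.24%. The letters of the NRF1 motif, the estrogen-related receptor motif TCAAGGTCA and the PPAR response element were in none of the member windows, and in 0.971%, 0.423% and 0.0396% of all. These are matches of letters only.

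Some markers of absorptive enterocytes were also lower in TPN. Of 8 enterocyte markers, 3 were lower in TPN against sham and 3 in TPN against starvation. Of all genes, 5.12% and 3.90% were lower in these comparisons. Their summed level was 36000, 66900 and 40400 CPM in sham, 27800, 23100 and 27600 CPM in TPN, and 22400, 33300 and 88000 CPM in starvation. Starvation replicate 1 had the lowest marker sum of all 9 libraries, 22400 CPM, and held 279 CPM of Slc25a10 and 227 CPM of Slc25a11, above all TPN libraries. Apoa4 made up most of that sum and of the sums in TPN. The single markers differed from each other, and most lay lower in all TPN libraries than in the other 6. The brush-border peptidase Anpep stood at 1130 to 1430 CPM in TPN against 2510 to 4920 CPM in the other 6 libraries. Alpi stood at 792 to 1500 against 2740 to 7700 CPM, and Fabp2 at 215 to 274 against 525 to 2020 CPM. Vil1 and Lct were likewise lower in all TPN libraries. Sis overlapped, at 976 CPM in TPN replicate 1 and 973 CPM in starvation replicate 1. Fabp1, a fatty acid binding protein, was at 83.0 CPM or more in TPN against 54.5 to 87.6 CPM in sham. Apoa4 stood at 22300 to 54400 CPM in sham, 17900 to 22400 CPM in TPN and 13100 to 67500 CPM in starvation, lowest in starvation replicate 1. Of 6 fibroblast markers, 3 were lower in TPN and 2 in starvation, each against sham, where 5.12% and 1.14% of all genes were lower. Their sums ran from 365 to 963 CPM in sham, 183 to 250 CPM in TPN and 137 to 263 CPM in starvation. The part of these cell types in the carrier differences was not tested. In bulk tissue, fewer cells of a type and less RNA per cell cannot be told apart.

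**Figure D3:**
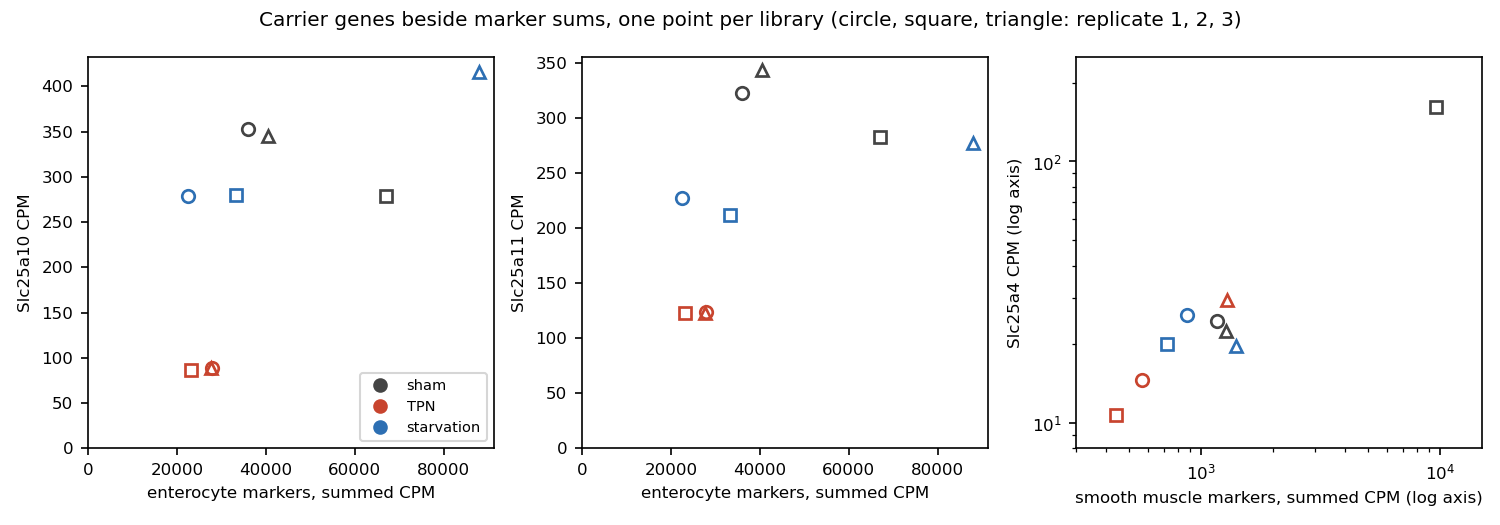
CPM of Slc25a10 and Slc25a11 against the summed CPM of 8 enterocyte markers, and CPM of Slc25a4 against that of 10 smooth muscle markers on log axes, with 1 point per library, colour for the group and symbol for the replicate. The TPN libraries lie at 86.3 to 88.8 CPM of Slc25a10, below all other libraries. Apoa4 makes up most of the enterocyte marker sum in each library. Sham replicate 2 stands alone at 161 CPM of Slc25a4 and 9670 CPM of smooth muscle markers.

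The other genes of the malate-aspartate and glycerol phosphate shuttles were counted as a list of 7 enzymes. Of these, 4 fell in TPN against sham, where 5.12% of all genes were lower. The list median was -0.86, against -0.02 over all genes. Gpd1, the cytosolic glycerol 3-phosphate dehydrogenase, changed by -1.44 ± 0.21 (adjusted p = 0.00507). The cytosolic malate dehydrogenase Mdh1 changed by -1.21 ± 0.30 (adjusted p = 0.0407), and the cytosolic and mitochondrial aspartate transaminases Got1 and Got2 by -0.98 ± 0.26 (adjusted p = 0.0486) and -0.86 ± 0.20 (adjusted p = 0.036). Against starvation, Got1 and Gpd1 were lower in TPN, at -1.47 ± 0.26 (adjusted p = 0.015) and -1.12 ± 0.20 (adjusted p = 0.0154). Both libraries that stood apart, sham replicate 2 and starvation replicate 3, were then left out. Of the 7, 6 were lower in TPN against sham, 4 in starvation against sham and 4 in TPN against starvation. The shares of all genes called in that fit, in either direction, were 29.8%, 19.9% and 21.6%. The aspartate/glutamate carriers of the same shuttle did not pass the test. Slc25a13, the higher of the pair per length, stood at 39.5, 25.9 and 40.6 CPM in sham, 30.2, 26.3 and 25.6 CPM in TPN and 25.2, 26.8 and 30.4 CPM in starvation, with a difference of -0.37 ± 0.19 (adjusted p = 0.244) in TPN against sham. Slc25a12 had -0.28 (adjusted p = 0.5). It made up 12.5% to 29.4% of the CPM per kb of the pair, the highest share being that of sham replicate 2. Without sham replicate 2 and starvation replicate 3 together, Slc25a13 reached -0.51 ± 0.10 (adjusted p = 0.00619) in TPN and -0.62 ± 0.12 (adjusted p = 0.00733) in starvation, each against sham.

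Of the amino acid carriers, Slc25a15 fell in both comparisons of TPN. Slc25a15 exchanges cytosolic ornithine for matrix citrulline and is a step of citrulline synthesis in the enterocyte. It stood at 409, 364 and 418 CPM in sham, 251, 223 and 205 CPM in TPN and 316, 357 and 416 CPM in starvation. All TPN libraries lay below the other 6, which overlapped. The difference was -0.81 ± 0.17 (adjusted p = 0.022) against sham and -0.68 ± 0.17 (adjusted p = 0.0473) against starvation. The call against sham ended when sham replicate 1, sham replicate 3 or any TPN replicate was left out, with log2 fold changes between -0.89 and -0.75 and adjusted p between 0.0703 and 0.112. The call against starvation ended without any 1 library other than sham replicate 2 or starvation replicate 1, with log2 fold changes between -0.76 and -0.52 and adjusted p between 0.0544 and 0.208, with 3 other scalings of the libraries, with no filter and with only the groups compared in the fit. None of the 6 ornithine and urea cycle enzymes of mitochondria was called in any of the 3 comparisons by edgeR, DESeq2 or limma voom, and none had an unadjusted p under 0.05. By edgeR without sham replicate 2 and starvation replicate 3 together, 1 of the 6 was called in each comparison. The call was lower in both comparisons with sham and higher in TPN against starvation. That fit called 29.8% of all genes in TPN against sham, 19.9% in starvation against sham and 21.6% in TPN against starvation. Slc25a29, the carrier of basic amino acids, had 0.50 in TPN against sham (adjusted p = 0.476).

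The glutamate carriers differed in level and in pattern. Slc25a22, which brings glutamate into the matrix with a proton, stood at 281, 532 and 334 CPM in sham, 335, 310.3 and 354 CPM in TPN and 153, 244 and 740.4 CPM in starvation. The highest library was starvation replicate 3, which also had the highest villus tip sum, and sham replicate 2 was next in both. The starvation group spanned the other groups, and the difference was -0.20 ± 0.50 (adjusted p = 0.83) in TPN against sham. In TPN against starvation it was -0.19 ± 0.50 (adjusted p = 0.867), and 0.80 ± 0.29 (adjusted p = 0.134) without starvation replicate 3. Slc25a18, its low-abundance relative, had 2, 4 and 6 reads in sham, 7, 8 and 22 in TPN, and 40, 27 and 14 in starvation. In CPM these are 0.196, 0.427 and 0.4998 in sham, 0.577, 0.954 and 1.76 in TPN and 3.19, 2.85 and 1.62 in starvation. All starvation libraries lay above all sham libraries, at 2.73 ± 0.59 (adjusted p = 0.0401), and the TPN libraries overlapped those of starvation. With these few reads, the call ended when any 1 library other than starvation replicate 3 was left out, with log2 fold changes between 2.43 and 3.01 and adjusted p between 0.068 and 0.117. It also ended with limma voom, with library totals as the only scaling and with only the groups compared in the fit.

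The remaining amino acid carriers were not called by edgeR. Slc25a44, a carrier of branched-chain amino acids, stood at 119, 128 and 124 CPM in sham, 115, 103 and 107 CPM in TPN and 95.4, 105 and 167 CPM in starvation, and its difference was -0.19 ± 0.20 (adjusted p = 0.578) in TPN against sham. Slc25a38, a glycine carrier of heme synthesis, stood at 16.7, 22.5 and 17.1 CPM in sham, 13.9, 12.5 and 16.6 CPM in TPN and 16.8, 20.3 and 26.0 CPM in starvation, with -0.38 ± 0.22 (adjusted p = 0.294) in TPN against sham and -0.55 ± 0.22 (adjusted p = 0.174) against starvation. TPN libraries of Slc25a38 lay below all sham and all starvation libraries, without passing the test.

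Both iron carriers rose in TPN. Slc25a37 (mitoferrin-1) and Slc25a28 (mitoferrin-2) bring iron into the matrix, where it enters heme and iron-sulfur clusters. Slc25a28 stood at 42.7, 31.4 and 37.9 CPM in sham, 80.8, 75.8 and 64.8 CPM in TPN and 74.1, 65.8 and 66.4 CPM in starvation. All 3 sham libraries lay below the other 6, and TPN and starvation overlapped. The difference was 0.98 ± 0.15 (adjusted p = 0.00748) in TPN against sham and 0.88 ± 0.15 (adjusted p = 0.0225) in starvation against sham. Slc25a37 stood at 90.2, 61.5 and 117 CPM in sham, 205, 233 and 178 CPM in TPN and 136, 191 and 149 CPM in starvation. Its sham libraries again lay below all others, with 1.20 ± 0.24 (adjusted p = 0.0194) in TPN and 0.83 ± 0.24 (adjusted p = 0.0892) in starvation. The starvation call of Slc25a28 ended without sham replicate 3, TPN replicate 1 or 2, or starvation replicate 2, with log2 fold changes between 0.88 and 0.91 and adjusted p between 0.0525 and 0.0828, and with library totals as the only scaling or only the groups compared in the fit. The TPN call of Slc25a37 ended without sham replicate 1 or any TPN replicate, with log2 fold changes between 1.10 and 1.29 and adjusted p between 0.0574 and 0.0897. Slc25a28 made up 34.3% to 46.8% of the CPM per kb of the pair, with overlapping ranges in the 3 groups.

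Genes of heme and iron-sulfur synthesis, 16 tested, did not rise with the iron carriers. In TPN against sham 3 fell, and 5.12% of all genes were lower. None was called higher there by edgeR, DESeq2 or limma voom, nor was any higher at an unadjusted p under 0.05. The ferrochelatase gene Fech, whose enzyme inserts iron to form heme, changed by -0.93 ± 0.13 (adjusted p = 0.00507). The glutaredoxin Glrx5 changed by -0.75 ± 0.13 (adjusted p = 0.012). Fech was also lower in TPN than in starvation, at -0.87 ± 0.13 (adjusted p = 0.0087). When sham replicate 2 and starvation replicate 3 were both left out, 7 of the 16 were lower in TPN against sham. In that fit 3 were lower in starvation against sham and 2 in TPN against starvation. The shares of all genes called, in either direction, were 29.8%, 19.9% and 21.6%. Mitoferrin-1 is abundant in red cell precursors, so 8 erythroid markers were read beside it. They summed to 27.9, 98.0 and 25.7 CPM in sham, 9.64, 10.8 and 24.9 CPM in TPN, and 60.3, 123 and 118 CPM in starvation, mostly as Hba-a1. The defining marker Slc4a1 was at 0 in 7 of the 9 libraries and at most 0.250 CPM in the others. Of 8 neutrophil markers, 4 were tested and 1 was higher in TPN than in sham, where 3.48% of all genes were higher. The 8 neutrophil markers summed to 3.44, 4.91 and 2.83 CPM in sham, 13.1, 12.0 and 13.0 CPM in TPN, and 3.59, 4.33 and 3.70 CPM in starvation, and Ly6g had no read. The part of these cells in the iron carriers' differences was not tested.

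**Figure D4:**
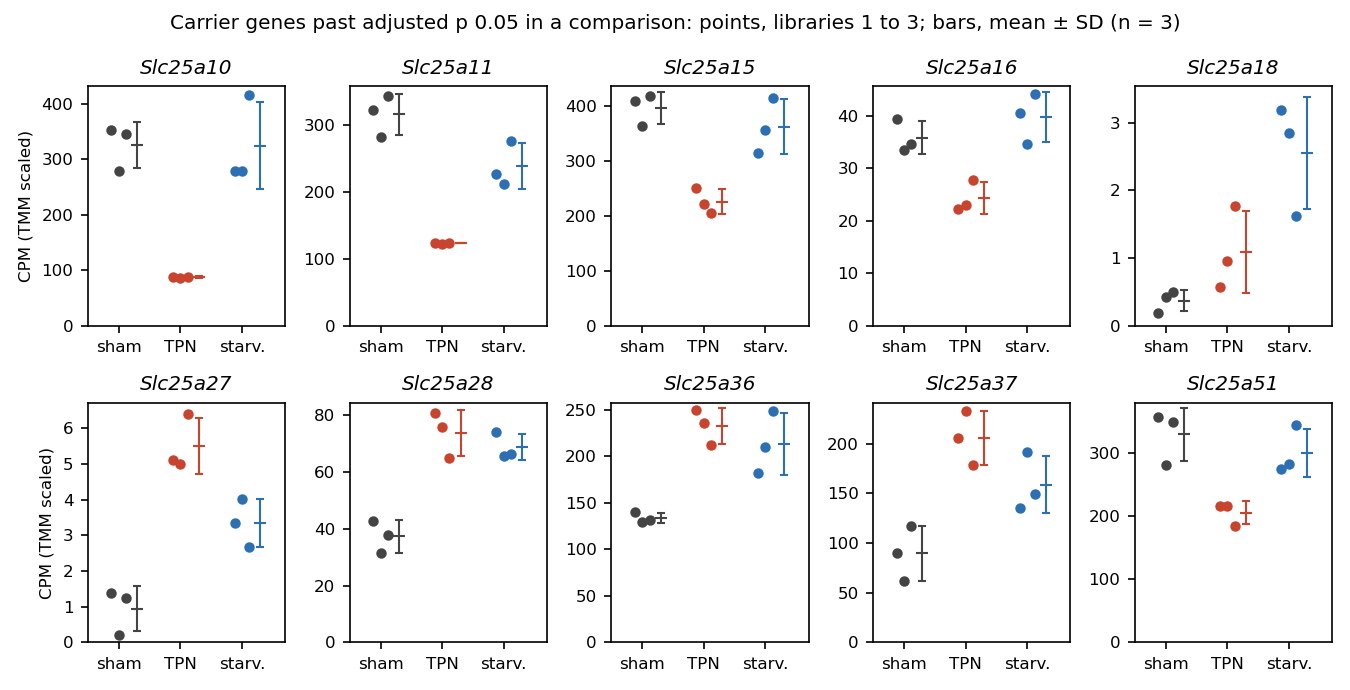
CPM (TMM scaled) of the 10 carrier genes with an adjusted p under 0.05 in at least 1 comparison, with a point for each of the 3 libraries of a group and a bar for mean ± SD, each axis starting at 0. The TPN points of Slc25a10 and Slc25a11 lie below all others, and the sham points of Slc25a28, Slc25a36 and Slc25a37 lie below all others.

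Carriers of nucleotides and cofactors moved in different directions. Slc25a36, which carries pyrimidine nucleotides for mitochondrial DNA and RNA synthesis, stood at 140.2, 129.6 and 132 CPM in sham, 249.9, 236 and 212 CPM in TPN and 182, 210.3 and 248 CPM in starvation. All sham libraries lay below the other 6. The difference was 0.80 ± 0.16 (adjusted p = 0.0183) in TPN and 0.67 ± 0.16 (adjusted p = 0.0498) in starvation. The starvation call ended without any 1 library other than starvation replicate 1 or 3, with log2 fold changes between 0.65 and 0.71 and adjusted p between 0.0931 and 0.133, and with DESeq2 size factors, no filter or only the groups compared in the fit. The TPN call ended without sham replicate 1 or 3 or any TPN replicate, with log2 fold changes between 0.74 and 0.86 and adjusted p between 0.0562 and 0.0962. Its relative Slc25a33 had -0.17 in TPN (adjusted p = 0.748). The share of Slc25a33 in the pair's CPM per kb was 13.5%, 26.0% and 17.7% in sham, 9.14%, 12.2% and 11.4% in TPN, and 17.6%, 15.9% and 13.0% in starvation. Of 10 genes of mitochondrial nucleotide supply and DNA synthesis, 1 fell in TPN against sham, where 5.12% of all genes were lower. It was the nucleotide kinase Cmpk2, at -1.47 ± 0.28 (adjusted p = 0.0146). In starvation against sham 1 rose, and 2.55% of all genes were higher. It was Polg2, the accessory subunit of the mitochondrial DNA polymerase, at 1.06 ± 0.22 (adjusted p = 0.0355). Sham replicate 2 and starvation replicate 3 were then both left out. Against sham, 3 of the 10 changed in TPN (2 higher and 1 lower) and 5 in starvation (4 higher and 1 lower). That fit called 29.8% and 19.9% of all genes in these comparisons.

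Slc25a51, which brings NAD into the matrix, stood at 357, 282 and 350.4 CPM in sham, 216, 217 and 184 CPM in TPN and 276, 283 and 345 CPM in starvation. TPN libraries lay below all others. The difference was -0.68 ± 0.17 (adjusted p = 0.0418) against sham and -0.55 ± 0.17 (adjusted p = 0.0959) against starvation. The call against sham ended without sham replicate 1 or 3, any TPN replicate or starvation replicate 2, with log2 fold changes between -0.72 and -0.61 and adjusted p between 0.0707 and 0.161, and with library totals, DESeq2 size factors or no filter. Slc25a16, linked to CoA transport, stood at 39.5, 33.5 and 34.6 CPM in sham, 22.2, 23.0 and 27.8 CPM in TPN and 40.6, 34.7 and 44.1 CPM in starvation. TPN libraries lay below the other 6, with -0.71 ± 0.15 (adjusted p = 0.0309) against starvation and -0.56 ± 0.15 (adjusted p = 0.0552) against sham. The call against starvation ended without any 1 library other than sham replicate 2 or starvation replicate 2, with log2 fold changes between -0.81 and -0.57 and adjusted p between 0.0513 and 0.143, and with library totals as the only scaling or only the groups compared in the fit. Against sham, Slc25a16 passed with DESeq2 and without starvation replicate 3, at -0.53 ± 0.14 (adjusted p = 0.0304). The CoA carrier Slc25a42 had 0.30 in TPN against sham (adjusted p = 0.595). None of 8 genes of CoA synthesis was called in TPN against sham by edgeR or limma voom. At an unadjusted p under 0.05, 2 were lower. DESeq2 called 1 lower (14.6% of all genes called). Without sham replicate 2 and starvation replicate 3, edgeR called 2 lower (29.8% of all genes called).

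Of 9 genes of the thiamine-dependent dehydrogenases and their kinase, 4 fell in TPN against sham (5.12% of all genes were lower there). These were the oxoglutarate dehydrogenase subunits Dlst at -1.06 ± 0.18 (adjusted p = 0.0105) and Ogdh at -1.01 ± 0.22 (adjusted p = 0.0253), and the pyruvate dehydrogenase subunits Dlat at -0.73 ± 0.13 (adjusted p = 0.0118) and Pdhb at -0.52 ± 0.14 (adjusted p = 0.0488). Ogdh and Dlst were also lower in TPN than in starvation, Ogdh at -1.05 ± 0.22 (adjusted p = 0.0256) and Dlst with means of 226 against 452 CPM (adjusted p = 0.0154). Leaving out sham replicate 2 and starvation replicate 3 together, 3 of the 9 were lower in TPN than in starvation. In starvation against sham 2 changed (1 higher and 1 lower). That fit called 21.6% and 19.9% of all genes in these comparisons. Of 8 enterocyte markers, 3 were called lower in each comparison of TPN, and of 6 villus tip markers none was called. Of all genes, 5.12% were lower in TPN against sham and 3.90% in TPN against starvation. The part of enterocytes and villus tip cells in the differences of the dehydrogenase genes was not tested.

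Slc25a32, a carrier of folate and FAD, stood at 26.5, 19.2 and 27.3 CPM in sham, 34.1, 34.6 and 28.8 CPM in TPN and 26.2, 24.6 and 22.7 CPM in starvation. TPN libraries lay above all others, without passing the test against sham (0.42 ± 0.17 (adjusted p = 0.158)) or starvation (0.41 ± 0.17 (adjusted p = 0.196)). Slc25a26, the S-adenosylmethionine carrier, stood at 7.56, 11.1 and 7.91 CPM in sham, 8.65, 9.77 and 10.2 CPM in TPN and 8.14, 7.81 and 5.79 CPM in starvation, with 0.11 ± 0.24 (adjusted p = 0.804) in TPN against sham and overlapping groups. Of 9 mitochondrial one-carbon enzymes none was called in TPN against sham by edgeR or limma voom. An unadjusted p under 0.05 was found for 4 (2 higher and 2 lower). DESeq2 called 1 lower (14.6% of all genes called). Without sham replicate 2 and starvation replicate 3, edgeR called 3 (1 higher and 2 lower), with 29.8% of all genes called.

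Among the glutathione carriers, Slc25a39 stood at 165, 157 and 164 CPM in sham, 123, 105 and 97.3 CPM in TPN and 144, 148 and 197 CPM in starvation. TPN libraries lay below all others, with -0.58 ± 0.16 (adjusted p = 0.061) against sham and -0.58 ± 0.16 (adjusted p = 0.0715) against starvation, short of the threshold in both by edgeR. DESeq2 called Slc25a39 lower in both comparisons, and edgeR called it in TPN against sham without starvation replicate 3, at -0.55 ± 0.11 (adjusted p = 0.0101). Slc25a39 made up 97.3% to 99.0% of the CPM per kb of Slc25a39 and Slc25a40. Slc25a40 had 0.19 in TPN against sham (adjusted p = 0.644).

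The carriers of oxidative phosphorylation were not called by edgeR with TMM scaling on all 9 libraries. Slc25a5 stood at 1258, 1238 and 1312 CPM in sham, 829, 759.5 and 784 CPM in TPN and 821, 961 and 1311 CPM in starvation. TPN libraries lay below all sham libraries and starvation overlapped both, with -0.68 ± 0.20 (adjusted p = 0.0654) in TPN against sham. Slc25a5 passed the threshold in this comparison under 6 of 21 alternatives, among them DESeq2, library totals alone, and the fit without starvation replicate 3 (-0.65 ± 0.10 (adjusted p = 0.00412)). Without starvation replicate 3, starvation against sham also passed for Slc25a5, at -0.54 ± 0.12 (adjusted p = 0.0278). A processed pseudogene of Slc25a5 is annotated, and how reads matching both were counted is not given in the sources used here. Slc25a3, which brings phosphate into the matrix, stood at 527, 483 and 506 CPM in sham, 386, 354 and 356 CPM in TPN and 412, 419.7 and 717 CPM in starvation, with -0.47 ± 0.23 (adjusted p = 0.218) in TPN against sham. TPN libraries lay below all others, and the difference passed without starvation replicate 3, at -0.44 ± 0.10 (adjusted p = 0.0178).

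Slc25a4, the ADP/ATP exchanger of muscle, stood at 24.6, 161 and 22.6 CPM in sham, 14.7, 10.7 and 29.6 CPM in TPN and 25.8, 20.1 and 19.7 CPM in starvation. Sham replicate 2, with the smooth muscle sum of 9670 CPM, was the one high library. The difference in TPN against sham was -1.91 ± 0.72 (adjusted p = 0.126), and -0.36 ± 0.37 (adjusted p = 0.61) without that library. Slc25a4 made up 8.35% of the CPM per kb of Slc25a4 and Slc25a5 in sham replicate 2 and 0.978% to 2.58% in the other 8 libraries. Slc25a23, an ATP-Mg/phosphate carrier, showed the same library at 56.1 CPM against 15.7 and 14.8 CPM in the other sham libraries. Its difference in TPN against sham was -0.71 ± 0.47 (adjusted p = 0.37) and changed sign to 0.21 ± 0.24 (adjusted p = 0.655) without it. Slc25a24, the most abundant ATP-Mg/phosphate carrier per length, stood at 205, 207 and 188 CPM in sham, 158, 147 and 148 CPM in TPN and 144, 205 and 278 CPM in starvation, with -0.40 ± 0.22 (adjusted p = 0.265) in TPN against sham. Without starvation replicate 1, Slc25a24 passed in TPN against starvation, at -0.68 ± 0.17 (adjusted p = 0.048). Slc25a25 had -0.86 in TPN against sham (adjusted p = 0.125) and -0.83 ± 0.20 (adjusted p = 0.0195) without starvation replicate 3. It made up 7.65% to 12.3% of the CPM per kb of Slc25a23, Slc25a24 and Slc25a25. Slc25a17, the peroxisomal carrier of ATP and CoA, stood at 21.4, 18.6 and 19.99 CPM in sham, 14.9, 13.8 and 15.3 CPM in TPN and 27.4, 22.2 and 11.4 CPM in starvation, with -0.44 ± 0.28 (adjusted p = 0.335) in TPN against sham. In TPN against starvation it was -0.47 ± 0.28 (adjusted p = 0.35), and -0.70 ± 0.15 (adjusted p = 0.0309) without starvation replicate 3.

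Of the 3 uncoupling-related carriers among the members, Slc25a27 (UCP4, best known from neurons) rose in TPN. The uncoupling protein gene Ucp2, whose symbol does not begin with Slc25a, was read apart from the members. It had means of 526 CPM in sham and 281 CPM in TPN and fell, at -0.91 ± 0.18 (adjusted p = 0.0187). Slc25a27 had 14, 2 and 15 reads in sham, 62, 42 and 80 in TPN, and 42, 38 and 23 in starvation. In CPM these are 1.37, 0.213 and 1.25 in sham, 5.11, 5.01 and 6.41 in TPN and 3.35, 4.01 and 2.66 in starvation. The 3 groups did not overlap, with sham lowest and TPN highest. The difference was 2.51 ± 0.53 (adjusted p = 0.0221) in TPN and 1.79 ± 0.52 (adjusted p = 0.09) in starvation. The TPN call ended without sham replicate 3 or any TPN replicate, with log2 fold changes between 2.39 and 2.76 and adjusted p between 0.0624 and 0.0888. Markers of enteric neurons and glia, 5 genes, summed to 10.1, 24.2 and 9.75 CPM in sham, 9.39, 7.75 and 15.9 CPM in TPN, and 8.38, 6.54 and 5.67 CPM in starvation, and none of them was called in TPN against sham. Slc25a30, the highest of this group per length, stood at 9.52, 14.6 and 9.16 CPM in sham, 15.4, 12.4 and 16.3 CPM in TPN and 15.2, 11.4 and 9.37 CPM in starvation, with 0.41 ± 0.26 (adjusted p = 0.351) in TPN against sham, and Slc25a14 had 0.42 (adjusted p = 0.544).

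Of 9 members with no substrate or only a recent one, 6 were tested. By edgeR on all 9 libraries their smallest adjusted p was 0.0706. Slc25a45, the highest per length, stood at 359.7, 231 and 343 CPM in sham, 244, 189.6 and 203 CPM in TPN and 246, 268 and 402 CPM in starvation, with -0.55 ± 0.24 (adjusted p = 0.184) in TPN against sham. Slc25a35 had the widest contrast of these in TPN against starvation, at 1.09 ± 0.30 (adjusted p = 0.0706). DESeq2 called Slc25a35 higher in TPN there, as did edgeR without starvation replicate 1, at 1.36 ± 0.32 (adjusted p = 0.0396). Slc25a53 passed in starvation against sham without starvation replicate 3, at 0.91 ± 0.24 (adjusted p = 0.0476). Without sham replicate 2 and starvation replicate 3 together, Slc25a45 and Slc25a47 passed in both comparisons with sham, Slc25a35 in both with starvation, and Slc25a53 in starvation against sham. The exons of Slc25a35 overlap those of Rangrf on the opposite strand over 31.3% of their length, and the library protocol in the labels names no step that keeps the strand, so reads of these genes may not be separable. The same holds over 14.9% of Slc25a33 exons, 8.92% of Slc25a11, 7.06% of Slc25a46, 6.60% of Slc25a10 and 6.33% of Slc25a37. Some other members had smaller overlaps. Slc25a47 had 0.94 in TPN and 0.97 in starvation against sham, with no overlap with sham in either and adjusted p of 0.143 and 0.16.

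On GRCm38, the 10 called members lie at these positions in GENCODE M21. Slc25a10 is at chr11:120491840-120499187, plus strand, and Slc25a11 at chr11:70644196-70647479, minus strand. Slc25a15 is at chr8:22375551-22398597, minus strand, Slc25a16 at chr10:62920633-62946498, plus strand, and Slc25a18 at chr6:120773578-120794336, plus strand. Slc25a27 is at chr17:43641891-43667214, minus strand, Slc25a28 at chr19:43663801-43674881, minus strand, and Slc25a36 at chr9:97074961-97111157, minus strand. Slc25a37 is at chr14:69241848-69285112, minus strand, and Slc25a51 at chr4:45395923-45408766, minus strand. Of the 2 dicarboxylate carriers that fell, both are on chromosome 11. The counts cover whole genes, so no exon, intron or UTR can be told apart.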

How the data were processed

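Bulk RNA-seq of mouse jejunum was analysed from deposited raw counts per gene. Per the submitters' processing notes, the authors used STAR 2.7.2e and featureCounts 2.0.0, with FastQC 0.11.8, cutadapt 2.9 and DESeq2 1.32.0, and the notes name GRCm38 and mm10. For the role of each tool, the annotation used, strandedness and multi-mapped reads, details were not given in the sources used here. Groups came from the labels, 3 libraries each. Counts in 9 other columns, which match none of the labels' samples, were left unused.

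All 9 libraries entered a single edgeR 4.0.16 fit (R 4.3.3). The filter filterByExpr kept 14668 genes and dropped 7200, and libraries were scaled by TMM. The quasi-likelihood model had 1 coefficient per group, leaving 6 residual degrees of freedom. Benjamini-Hochberg adjustment ran over all genes tested, with a threshold of 0.05. An SE was obtained from a log2 fold change and its F value, as their ratio after taking the root of F. Exon lengths, positions and overlaps came from GENCODE M21 and promoters from RefSeq. Libraries of a group differed by more than sampling noise (chi-square per gene 7.74 to 118). The script was tested on simulated data.

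Members, substrate groups, companion lists and marker lists were chosen with earlier results of these data known, and the erythroid and neutrophil lists after these values were seen. Values in every library are given for members past the threshold in a comparison and for the highest member per length of each substrate group. Of a companion list, up to 4 genes past the threshold with the smallest adjusted p are named. Results of a few genes chosen this way were left out of the text and figures. Alternatives were DESeq2 1.42.0, limma 3.58.1 voom, other scalings, filters and thresholds, a fit restricted to the compared groups, a block for replicate number, and libraries left out.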

Additional observations from a re-analysis of the deposited data

How the results depend on the processing

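Shares in brackets are the percent of all genes called in the same fit. In TPN against sham, where 8 members were called, the count was 14 (19.4) when only the groups compared were fitted, 3 (1.76) with adjusted p under 0.01 and 4 (4.51) with at least a 2-fold change. It was 19 (29.8) without sham replicate 2 and starvation replicate 3 together, and 3 to 14 with 1 library left out in turn. In starvation against sham, where 3 were called, the count was 1 (2.41) with library totals only, 5 (9.59) with DESeq2, 0 (0.0141) by edgeR when only the groups compared were fitted, 0 (0.205) with adjusted p under 0.01, 1 (2.45) with at least a 2-fold change, 13 (19.9) without the pair of libraries and 0 to 7 with 1 library left out. In TPN against starvation, where 4 were called, the count was 2 (4.88) with library totals only, 7 (11.1) with DESeq2, 2 (3.78) when only the groups compared were fitted, 1 (0.982) with adjusted p under 0.01, 1 (3.63) with at least a 2-fold change, 10 (21.6) without the pair of libraries and 1 to 5 with 1 library left out. Slc25a10 kept its call in both TPN comparisons under all 21 alternatives, and Slc25a11 in TPN against sham. Slc25a22 was not called in TPN against starvation at -0.19, and reached 0.79 (adjusted p = 0.0169) without sham replicate 2 and starvation replicate 3, the only change of direction with a call. Of 2390 values of tested members under alternatives, 108 lost a call and 55 gained one, and 107 were uncalled in both with the other sign. Of 693 companion list counts, 497 stayed within 1.5 times. Library totals as the only scaling moved the median log2 fold change of all genes by 0.189 in TPN against sham, 0.036 in starvation against sham and 0.143 in TPN against starvation. The cause of these changes was not tested. With replicate number as a block, the counts were 3 (3.79), 0 (0.484) and 2 (2.63) by edgeR in the same order of comparisons. Slc25a10 and Slc25a11 kept their calls in both TPN comparisons and Slc25a28 in TPN against sham. The correlations of same-numbered libraries ran from -0.3 to 0.378 over 9 pairs, so the numbers were not taken to pair the samples. Slc25a18 and Slc25a27 rest on few reads, 1 of which was worth 0.0798 to 0.119 CPM. How much of their spread is counting error was not tested.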

Other observations

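Genes that regulate the number of mitochondria, or bring carriers into their membrane, were read beside the family. Of 11 tested regulators of mitochondrial biogenesis, 2 rose in TPN against sham, where 3.48% of all genes were higher. The list median was 0.40 against -0.02 over all genes. Ppara, a receptor that drives fatty acid oxidation, rose by 1.87 ± 0.29 (adjusted p = 0.00773), and the transcription factor Nrf1 by 0.81 ± 0.14 (adjusted p = 0.0101). Without sham replicate 2 and starvation replicate 3 together, 6 of the 11 were called in this comparison, 4 higher and 2 lower. That fit called 29.8% of all genes. In starvation against sham the median of the 11 was 0.36, near that in TPN. There edgeR with TMM on all 9 libraries called none, and DESeq2 called 3 higher (9.59% of all genes called). In TPN against starvation the median was 0.0047, and the same edgeR fit called none. Of 16 genes of the machinery that imports carriers, 2 fell in TPN against sham, where 5.12% of all genes were lower. Timm22, the channel that inserts carriers into the inner membrane, changed by -0.94 ± 0.16 (adjusted p = 0.00969), and Timm13, a chaperone of the space between the membranes, by -0.75 ± 0.13 (adjusted p = 0.0108). In starvation against sham, where 1.14% of all genes were lower, 1 fell, the outer membrane subunit Tomm6, at -0.96 ± 0.19 (adjusted p = 0.0329). Without that pair of libraries the import list had 3 lower in TPN and 6 changed in starvation (1 higher and 5 lower), each against sham. The shares of all genes called were 29.8% and 19.9%.

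Another list held 21 tested mitochondrial membrane transporters whose symbols do not begin with Slc25a, among them the uncoupling protein Ucp2 and the carrier-like Mtch2. Of these, 3 fell in TPN against sham (5.12% of all genes were lower) and 4 in TPN against starvation (3.90%). Against sham these were the ion exchanger gene Letm1 at -1.01 ± 0.19 (adjusted p = 0.0148), Ucp2 at -0.91 ± 0.18 (adjusted p = 0.0187) and Mtch2 at -0.64 ± 0.17 (adjusted p = 0.0461). Against starvation they included Mtch2 at -0.88 ± 0.17 (adjusted p = 0.0176), the heme-linked transporter Abcb10 at -0.86 ± 0.18 (adjusted p = 0.0286) and Letm1 at -0.77 ± 0.19 (adjusted p = 0.0447). Without sham replicate 2 and starvation replicate 3, the same list had 10 called against sham (1 higher and 9 lower) and 9 against starvation, all lower. The shares of all genes called were 29.8% and 21.6%. Of 9 genes of branched-chain amino acid breakdown, 1 rose in starvation against sham, where 2.55% of all genes were higher. It was Mccc1, a subunit of methylcrotonyl-CoA carboxylase, at 1.54 ± 0.27 (adjusted p = 0.0244). In TPN against starvation 2 of the 9 were lower, and 3.90% of all genes were lower. Mccc1 changed there by -1.16 ± 0.27 (adjusted p = 0.0367). The mitochondrial transaminase Bcat2 was lower in TPN than in starvation, at -0.66 ± 0.15 (adjusted p = 0.0328).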
